A study of Spodoptera frugiperda with 18 samples.

Results

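Rows of the let-7 microRNA were followed across the life cycle of the fall armyworm, Spodoptera frugiperda, a moth whose larvae are crop pests. The rows were chosen by name. They are let-7-x, let-7-y and let-7-z, with miR-98-x, which was added because its sequence is a near copy of let-7-x. Together they are 4 of the 741 rows of a small RNA count table. The table holds 18 libraries of total RNA, and the labels name a stage, and for pupae and adults a day and a sex, but no strain, genotype, treatment or tissue. There is 1 library each of eggs, of instars 1 to 6 of the larva and of the prepupa, followed by pupae of both sexes at days 1, 4 and 7 and adults of both sexes at days 1 and 4. The larval and pupal groups of 6 and the adult group of 4 therefore pool instars, or ages and sexes, and the spread within a group includes those differences. How many insects made up a library was not stated, so p-values measure the spread between these libraries.

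let-7 was first found in the nematode Caenorhabditis elegans, where it drives the passage from larval to adult cell fates, and its mature sequence is nearly the same in insects and vertebrates. A microRNA guides silencing of messenger RNAs that pair with its seed, bases 2 to 8 of the mature strand. In Drosophila melanogaster let-7 is cut from the same primary transcript as miR-100 and miR-125, appears around the onset of metamorphosis under the moulting hormone ecdysone, and is needed for remodelling of nerve and muscle.

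The sequences as deposited are shown because the rows differ in strand, in their first base or only in their last bases. Capitals mark bases 2 to 8 and T stands for U.
let-7-x: tGAGGTAGtaggttgtatag
miR-98-x: tGAGGTAGtaggttgtatt
miR-8549-z: tGAGGTAGtaggttgtattt
miR-5991-z: tGAGGTAGtaggttgtattc
miR-6134-z: tGAGGTAGtaggatgtatag
let-7-z: gAGGTAGTaggttgtatagtact
let-7-y: cTGTACGGcctactaactttcc
let-7-x, the main strand, has 20 bases. Positions are counted from 1 at its 5′ end, with its base given first in each substitution. miR-98-x has 19 bases, shares the first 18 with let-7-x and carries A19T. Searching all sequences for the let-7-x seed found 3 further rows, miR-8549-z (A19T and G20T), miR-5991-z (A19T and G20C) and miR-6134-z (T13A), so that 5 rows hold the seed. let-7-z starts at base 2 of let-7-x, matches it over 19 bases and runs to a length of 23 bases, and its own bases 2 to 8 are shifted by that start. let-7-y, of 22 bases, is the opposite strand of the hairpin: in a computed duplex it formed 19 base pairs with let-7-x, at -23.00 kcal/mol. Over the 18 libraries let-7-x had 587920 counts, let-7-y 13076, miR-98-x 4460, miR-8549-z 1478, let-7-z 467, miR-6134-z 182 and miR-5991-z 25. Because 6 of these 7 rows overlap in sequence, how reads were split among them depends on the authors' counting, and sums over the 6 forms are given beside the single rows.

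Library totals ran from 233304 counts in instar 3 to 4893525 in the prepupa. The egg, the larvae and the male pupae of days 4 and 7 all had at most 808248, and their low rows are the least precise. Levels are given as CPM, the count of a row scaled to the same total in every library, and exact 95% binomial intervals cover counting error only. In such bulk samples, fewer cells that hold a microRNA and less of it per cell cannot be told apart. The 55 rows with family names known from vertebrates, which the table also holds, summed to 36.3 to 8689 CPM in larvae, 36.6 to 6340 CPM in pupae and 1339 to 7139 CPM in adults. Since let-7 is nearly the same in vertebrates, these sums are given beside results that they could touch. Rows named for muscle (miR-1 and miR-133) summed to 34841 to 75310 CPM in larvae, 15197 to 35742 CPM in pupae and 18196 to 52442 CPM in adults. The neuronal row (miR-124) lay at 10.9 to 1230 CPM in larvae, 22.6 to 56.6 CPM in pupae and 44.9 to 110 CPM in adults. The ovarian rows (miR-989) reached 4761 and 20258 CPM in female adults and at most 1.80 CPM in male adults.

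let-7-x was close to absent at the start of larval life and was among the most abundant rows at metamorphosis. It had 53.2 CPM in the egg, from 20 counts. In instars 1 to 6 it had 1.39, 175, 844, 2265, 4648 and 5829 CPM, with a single count behind the value of instar 1, whose interval ran from 0.0353 to 7.77 CPM. The level was higher in every instar than in the one before it, and instar 1 lay below the egg. In the prepupa, the stage in which the larva stops feeding and pupal form is prepared, let-7-x had 20906 CPM. The pupae of days 1, 4 and 7 had 28342, 21716 and 35182 CPM in females against 24426, 21385 and 26811 CPM in males. The adults of days 1 and 4 had 12040 and 9005 CPM in females against 10669 and 11465 CPM in males. All 6 pupae thus lay above all 4 adults, and all 4 adults above all 6 larvae. Among the 660 rows left after identical rows were merged, let-7-x ranked 150 in the egg and 348, 132, 66, 41, 28 and 27 in instars 1 to 6. It ranked 13 in the prepupa, 5 to 11 in the pupae and 19 to 26 in the adults, and took 3.52% of all counts in the female pupa of day 7.

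**Figure D1:**
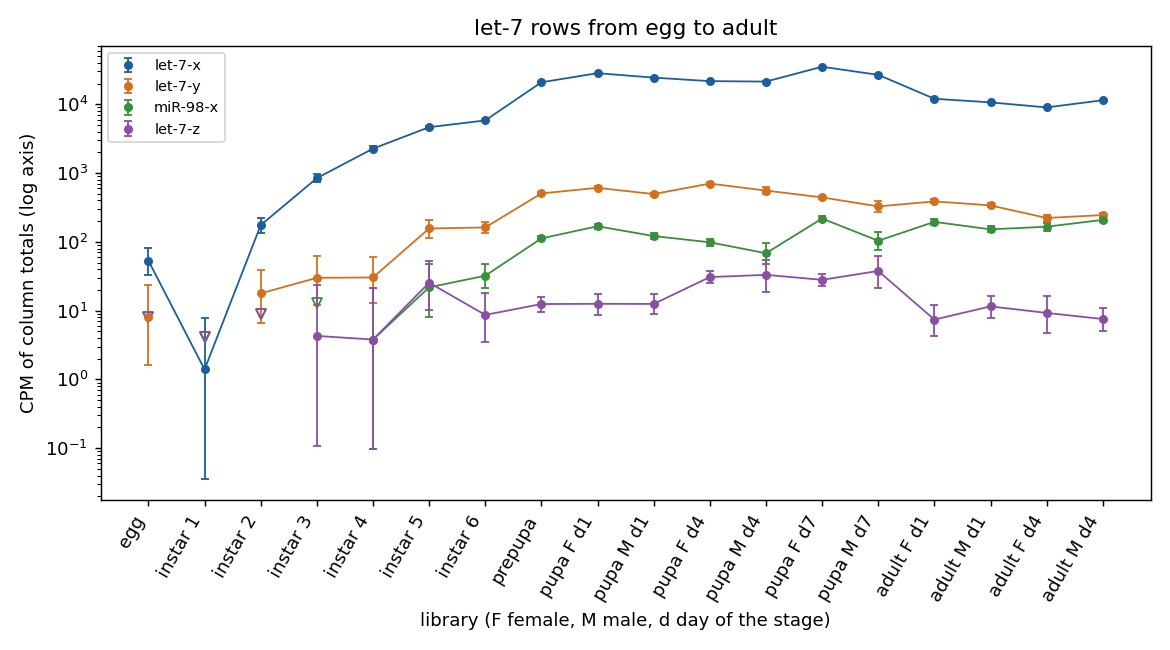
Levels of let-7-x, let-7-y, miR-98-x and let-7-z in each of the 18 libraries, as CPM on a logarithmic axis with exact 95% binomial intervals (counting error only). Triangles mark libraries with 0 counts, drawn at the CPM of 3 counts. let-7-x lies above the other forms wherever it was counted beyond a single read, from 1.39 CPM in instar 1 to 35182 CPM in the female pupa of day 7.

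Ordered by level, let-7-x was highest in the female pupa of day 7, followed by the female pupa of day 1, the male pupae of days 7 and 1, the female and male pupae of day 4, and the prepupa. The adults came next, in the order female of day 1, male of day 4, male of day 1 and female of day 4, then instars 6 down to 2, the egg and instar 1. Intervals of neighbours overlapped only between the female and the male pupa of day 4, and between the male pupa of day 4 and the prepupa. Since each stage has 1 library, these intervals hold no variation between insects. This order is that of library totals, and parts of it changed with TMM factors. The female pupa of day 4 then had 34797 CPM, above that of day 1 at 32665 CPM. The male pupa of day 4 had 19664 CPM, below the prepupa at 23633 CPM. The male adult of day 4 had 13964 CPM, above the female adult of day 1 at 13631 CPM.

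The steps between larval instars became smaller. Instar 2 had 125.5 times the level of instar 1, with an interval of 21.7 to 5041 that reflects the single count. The later steps were 4.82-fold for instar 3 over 2, 2.68-fold for instar 4 over 3, 2.05-fold for instar 5 over 4 and 1.25-fold for instar 6 over 5. The prepupa then had 3.59 times the level of instar 6 (interval 3.48 to 3.69). Over the 6 larval libraries, edgeR's quasi-likelihood test gave let-7-x a slope of 1.79 on the log2 scale per instar (SE 0.39, adjusted p = 0.0171), and let-7-y a slope of 1.27 (SE 0.30, adjusted p = 0.0213). These were the only let-7 rows with a mean of at least 10 counts in larvae, and both rose, where 10.7% of the 234 rows tested rose with instar. Their calls depended on single libraries. The adjusted p of let-7-x was 0.0720 without instar 2 and 0.0514 without instar 4. That of let-7-y was 0.0562 without instar 2, 0.0507 without instar 3 and 0.0514 without instar 4. With instars 3 to 6 alone, an alternative chosen after seeing the data, the slope of let-7-x was 1.06 (adjusted p = 0.0998). The vertebrate-named rows summed to 64.3, 1851, 8689 and 45.8 CPM in instars 3, 4, 5 and 6. These sums rose along with let-7-x from instar 1 to 2 and from instar 3 to 5. From instar 2 to 3 and from instar 5 to 6 they fell while let-7-x rose. The part of the vertebrate-named rows in the larval trend was not tested.

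let-7-x and let-7-y were higher in pupae than in larvae. let-7-x averaged 26311 ± 5138 CPM in pupae and 2294 ± 2445 CPM in larvae (SD, n = 6 each), and the groups did not overlap. The fitted log2 fold change was 3.53 (SE 1.07, adjusted p = 0.0193 by edgeR), and 4.26 without instar 6. let-7-y averaged 523 ± 132 CPM in pupae and 66.1 ± 73.0 CPM in larvae, and its fitted value was 2.97 (SE 0.90, adjusted p = 0.0189), and 3.67 without instar 6. Both rows that had a mean of at least 10 counts in larvae thus rose, where 19.4% of the 320 rows tested were higher in pupae. miR-98-x and let-7-z had 26 counts or fewer in each larva and met the minimum mean count only through the later stages, so their fitted values are given as a description. miR-98-x averaged 130 ± 54.5 CPM in pupae and 9.63 ± 13.9 CPM in larvae, and its fitted value was 3.64 (SE 0.99), or 5.01 without instar 6. let-7-z, at 25.8 ± 10.7 CPM in pupae and 7.03 ± 9.58 CPM in larvae, had 2.05 (SE 0.84), or 2.99 without instar 5. The near copy miR-8549-z had 0 counts in instars 1 to 4, 1 in instar 5 and 3 in instar 6, against 31.1 to 78.1 CPM in pupae. The 6 overlapping forms summed gave 3.54 (adjusted p = 0.0192). let-7-x made up at least 98.9% of these reads in each larva and 99.05% in each pupa, so the sum nearly repeats let-7-x. In pupae of days 1, 4 and 7 the vertebrate-named rows summed to 36.6, 915 and 559 CPM in females and to 44.3, 1327 and 6340 CPM in males. In larvae they summed to 36.3 to 8689 CPM. Their part in the difference between pupae and larvae was not tested.

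Between adults and pupae the forms differed in direction. let-7-x averaged 10795 ± 1319 CPM in adults (SD, n = 4) and 26311 ± 5138 CPM in pupae (n = 6), a ratio of 0.410 with no overlap. In the joint fit of larvae, pupae and adults its log2 fold change was -1.43 (SE 1.14, adjusted p = 0.406), which did not pass. That fit takes its spread from all 3 stages, the larvae included. When adults and pupae were fitted without the larvae, an alternative chosen after seeing the data, the same contrast was -1.42 (SE 0.29, adjusted p = 0.00933). let-7-y averaged 298 ± 77.8 CPM in adults and 523 ± 132 CPM in pupae (-0.93, adjusted p = 0.524). let-7-z averaged 8.93 ± 1.92 CPM in adults and 25.8 ± 10.7 CPM in pupae (-1.67, adjusted p = 0.198), and it too passed in the fit without the larvae (-1.64, adjusted p = 0.0288). miR-98-x had the opposite sign: it averaged 180.5 ± 26.1 CPM in adults and 130 ± 54.5 CPM in pupae (0.32, adjusted p = 0.843). None of the 4 rows passed in the joint fit, where 23.4% of the 320 rows did.

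Adults still had more let-7-x than larvae in every library, at 10795 ± 1319 CPM against 2294 ± 2445 CPM, but the log2 fold change of 2.10 (SE 1.08) did not pass (edgeR adjusted p = 0.149). let-7-y had 2.04 (edgeR adjusted p = 0.104). It passed without instar 6 (2.71, adjusted p = 0.0387), and by the DESeq2 Wald test (2.25, adjusted p = 0.0269). In this comparison 17.5% of rows were called higher in adults. The values of miR-98-x, 3.97 (SE 1.04), and let-7-z, 0.38 (SE 0.90), rest on the same few larval counts and are a description.

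**Figure D2:**
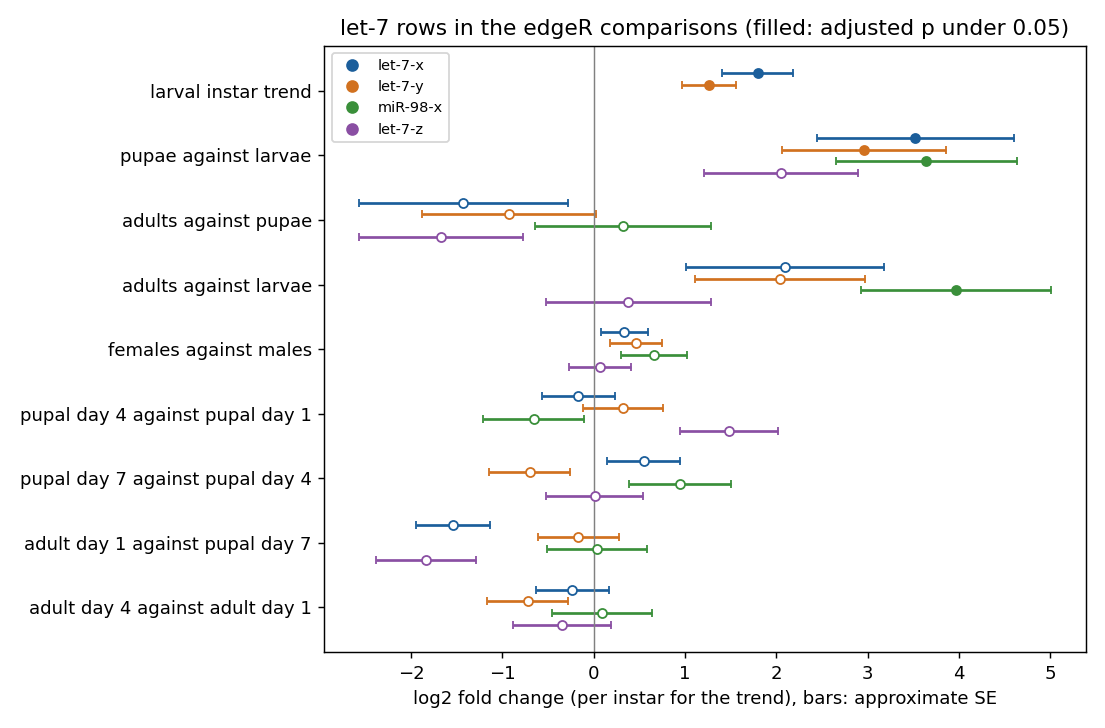
Log2 fold changes of the let-7 rows in the stage, age and sex comparisons, and log2 slopes per instar for the larval trend, from edgeR's quasi-likelihood fits. Bars are 1 approximate standard error, and filled circles mark an adjusted p under 0.05. miR-98-x and let-7-z met the minimum mean count only through pupae and adults. The values for pupae over larvae lie between 2.05 (let-7-z) and 3.64 (miR-98-x), and those for females over males between 0.07 and 0.66.

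The tail of the let-7 strand differed between adults and pupae. miR-98-x, the form with T in place of A at base 19, made up 1.59% and 1.79% of the reads of the 6 let-7 forms in female adults of days 1 and 4, and 1.40% and 1.78% in male adults. In pupae of days 1, 4 and 7 it made up 0.590%, 0.450% and 0.614% in females and 0.493%, 0.317% and 0.384% in males. Every adult lay above every pupa, with means of 1.64% ± 0.187 in adults (SD, n = 4) and 0.475% ± 0.115 in pupae (n = 6). Tested as the log2 ratio of let-7-x over miR-98-x within each library, the difference was -1.83, or 3.56-fold less let-7-x per miR-98-x in adults (exact two-sided permutation test, p = 0.00952, the smallest p that 4 against 6 libraries can give, adjusted over 6 ratio tests 0.0190). Counting all 3 forms that leave let-7-x after base 18 gave 2.21% ± 0.245 in adults and 0.645% ± 0.137 in pupae. Instars 3, 4, 5 and 6 had 0%, 0.167%, 0.464% and 0.548%, from 0, 1, 6 and 26 counts, and the prepupa had 0.532%. The vertebrate-named rows summed to 1499 and 7139 CPM in female adults of days 1 and 4 and to 2180 and 1339 CPM in male adults. In pupae of days 1, 4 and 7 they summed to 36.6, 915 and 559 CPM in females and to 44.3, 1327 and 6340 CPM in males. Their part in the share was not tested.

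**Figure D3:**
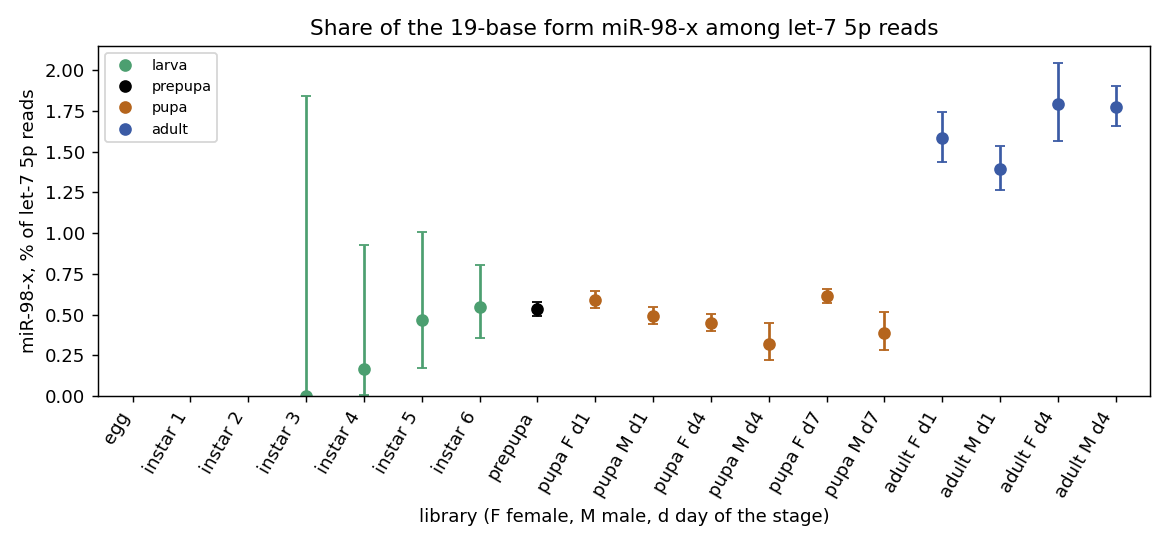
miR-98-x as a percent of the reads of the 6 let-7 forms in each library with at least 100 such reads, with exact 95% binomial intervals. Libraries with fewer reads (egg, instars 1 and 2) are left empty, and instar 3 had 0 counts of miR-98-x. The 4 adults lie between 1.40% and 1.79%, and the 6 pupae between 0.317% and 0.614%.

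For pupae against larvae the same ratio gave no stable value. The difference was 0.93 (exact permutation test, p = 0.63), and it was -0.11 without instar 1. miR-98-x had 0 counts in the egg and in instars 1, 2 and 3, and 1, 6 and 26 counts in instars 4, 5 and 6, so the larval ratio rests on few reads.

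let-7-y, the opposite strand, followed let-7-x at a much lower level. It had 8.0 CPM in the egg, from 3 counts, and 0 counts in instar 1, whose interval reached 5.14 CPM. Instars 2 to 4 had 6, 7 and 8 counts (at most 30.3 CPM, in instar 4), and instars 5 and 6 had 156 and 162 CPM. The prepupa had 506 CPM. Pupae of days 1, 4 and 7 had 610, 704 and 443 CPM in females against 495, 557 and 328 CPM in males, and adults of days 1 and 4 had 387 and 222.2 CPM in females against 339 and 245 CPM in males. Unlike let-7-x, let-7-y was lowest at day 7 among the pupae of each sex. The number of let-7-x reads per let-7-y read was 46.4, 30.9 and 79.4 in female pupae of days 1, 4 and 7, and 49.3, 38.4 and 81.8 in male pupae, so that it was highest at day 7 in both sexes. In adults it was 31.1 and 40.5 in females of days 1 and 4 and 31.5 and 46.7 in males. The mean log2 ratio differed by -0.47 between adults and pupae (exact permutation test, p = 0.21, adjusted 0.251) and by 1.39 between pupae and larvae (p = 0.0606, adjusted 0.0909). Without instar 4, in which the ratio was 74.6 from 8 let-7-y counts, the difference between pupae and larvae was 1.76 (adjusted p = 0.0143). Without instar 1, in which let-7-x had 1 count and let-7-y 0, the difference was 0.854.

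let-7-z, the form with the shifted start, stayed under 40 CPM. It had 0 counts in the egg and instars 1 and 2, and 1, 1, 7 and 7 counts in instars 3 to 6. It had 12.5 CPM in the prepupa. Pupae of days 1, 4 and 7 had 12.6, 30.7 and 28.0 CPM in females against 12.5, 33.1 and 37.7 CPM in males, so that both day 1 pupae lay below the other 4. Adults of days 1 and 4 had 7.40 and 9.26 CPM in females against 11.5 and 7.54 CPM in males. By edgeR, day 4 pupae differed from day 1 pupae by 1.48 (SE 0.53, adjusted p = 0.144), and the DESeq2 Wald test called it (adjusted p = 0.00596).

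Measured against miR-100-x, its partner in the fly transcript, let-7-x was relatively more abundant in pupae than in larvae or adults. The partner sequences are shown because the ratio rests on the first of them, and because the second is a shortened copy of it.
miR-100-x: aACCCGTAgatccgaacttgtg
miR-99-x: aACCCGTAgatccgaacttg
miR-125-x: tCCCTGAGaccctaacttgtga
miR-100-x was among the most abundant rows, with 51593 ± 53919 CPM in larvae, 198801 ± 7874 CPM in pupae and 144680 ± 25926 CPM in adults (SD, n = 6, 6 and 4). let-7-x counts came to 6.97% of miR-100-x counts in the egg, to 0.340%, 2.95%, 3.999%, 4.94%, 4.05% and 4.797% in instars 1 to 6, and to 13.4% in the prepupa. In pupae of days 1, 4 and 7 they came to 14.5%, 10.9% and 17.1% in females and 12.9%, 10.2% and 13.9% in males. In adults of days 1 and 4 they came to 7.73% and 8.49% in females and 6.59% and 7.39% in males. From instar 2 to instar 6 the share stayed between 2.95% and 4.94% while let-7-x was 33.3-fold and miR-100-x 20.4-fold higher in instar 6 than in instar 2. Between instar 6 and the prepupa let-7-x was 3.59 times higher in the prepupa and miR-100-x 1.29 times higher.

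The log2 ratio of let-7-x over miR-100-x was 2.17 higher in pupae than in larvae, or 4.51-fold (exact two-sided permutation test, p = 0.00216, the smallest that 6 against 6 libraries can give, adjusted 0.0130). It was -0.79 in adults against pupae, or 1.73-fold lower in adults (exact permutation test, p = 0.00952, the smallest possible, adjusted 0.0190). Neither comparison had overlapping groups. The larval mean includes instar 1, in which let-7-x had a single count. Without instar 1 the difference between pupae and larvae was 1.67. Since both rows come from the same library, this ratio does not depend on the library total or on scaling. Raw read numbers of different microRNAs also carry ligation and amplification differences, so the percentages are not molar shares.

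**Figure D4:**
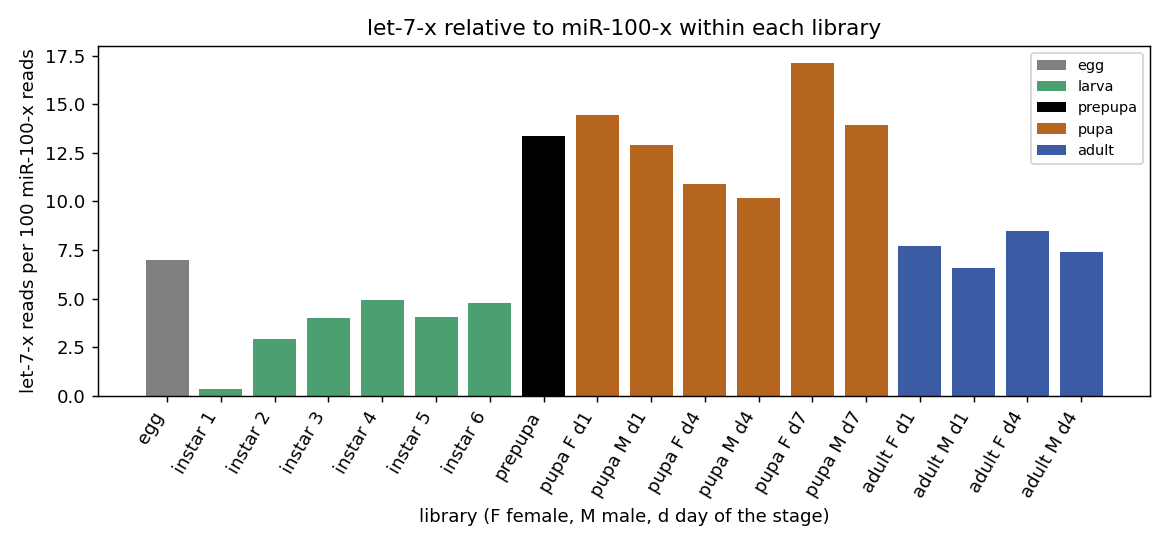
let-7-x counts as a percent of miR-100-x counts in each of the 18 libraries. Larvae lie between 0.340% and 4.94%, pupae between 10.2% and 17.1%, and adults between 6.59% and 8.49%.

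No let-7 row differed between the sexes at the threshold. By library totals, let-7-x was 1.16-fold, 1.02-fold and 1.31-fold as high in female as in male pupae of days 1, 4 and 7. In adults of days 1 and 4 it was 1.13-fold and 0.785-fold. These ratios moved with scaling. With TMM factors the day 4 pupae had 34797 CPM in the female and 19664 CPM in the male. The day 4 adults then had 8600 and 13964 CPM. With age as a term, edgeR gave females over males 0.33 for let-7-x (SE 0.26, adjusted p = 0.606), 0.47 for let-7-y (SE 0.28, adjusted p = 0.517), 0.66 for miR-98-x (SE 0.36, adjusted p = 0.505) and 0.07 for let-7-z (SE 0.34, adjusted p = 0.936). None of the 4 passed, where 0.581% of 344 rows did. The male pupae of days 4 and 7 were the shallow ones. Without them the value of let-7-x was -0.03, so no direction can be given.

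Age within a stage gave no calls either. By library totals, day 4 pupae had 0.766 times the let-7-x of day 1 pupae in females and 0.876 times in males. The joint log2 value by edgeR was -0.17 (SE 0.40, adjusted p = 0.841), in a comparison that called 5.52% of rows. With TMM factors the females had 34797 CPM at day 4 and 32665 CPM at day 1, the opposite direction. The males had 19664 and 25293 CPM. Day 7 pupae had 1.62 times the level of day 4 pupae in females and 1.25 times in males (0.55, SE 0.40, adjusted p = 0.567), in a comparison in which edgeR called 0% of 344 rows, with 56 rows at an unadjusted p under 0.05 and 49 called by DESeq2. Day 4 adults had 0.748 times the level of day 1 adults in females and 1.07 times in males (-0.23, SE 0.40, adjusted p = 0.896), where 0.291% of rows passed. The other 3 rows did not pass in any of these comparisons by edgeR.

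The step out of the pupa was larger. New adults of day 1 had 12040 and 10669 CPM of let-7-x in the female and the male, against 35182 and 26811 CPM in the female and male pupa of day 7, which is 0.342-fold and 0.398-fold. The log2 fold change was -1.54 (SE 0.41), with an adjusted p of 0.0792 by edgeR with TMM scaling, just outside the threshold, in a comparison that called 3.78% of rows. The call depended on the scaling and on single libraries. The adjusted p was 0.0191 with DESeq2's size factors in edgeR, 0.00908 with library totals, 0.0152 without the vertebrate-named rows and 1.88e-05 by the DESeq2 Wald test. It was 0.0405 without the male pupa of day 1, 0.00563 without the female adult of day 4 and 0.00468 without the male adult of day 4. Over all alternatives it ran from 1.88e-05 to 0.426. let-7-z had -1.84 (SE 0.55, adjusted p = 0.102), let-7-y -0.17 (adjusted p = 0.913) and miR-98-x 0.04 (adjusted p = 0.981). The adjusted p of let-7-z was 0.0449 with DESeq2's size factors in edgeR, 0.0293 without the vertebrate-named rows and 0.00124 by the DESeq2 Wald test. It was 0.0283 without the female adult of day 4 and 0.0377 without the male adult of day 4.

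Partners of let-7 were sought by the names miR-100, miR-99, miR-125 and lin-4. The table holds 7 rows named miR-100, miR-99 or miR-125, and none named lin-4. In pupae against larvae 6 were tested and 0 passed, where 19.4% of all 320 rows were higher and 18.1% lower. The median log2 fold change was 0.53 in the list, against -0.01 over all rows. miR-100-x had 1.95 (SE 0.88, adjusted p = 0.0889 by edgeR). With larval instar, 3 of the 5 tested rows rose: miR-100-x by 1.58 per instar (SE 0.25, adjusted p = 0.00639), miR-100-z by 1.79 (SE 0.28, adjusted p = 0.00639) and miR-99-x by 2.12 (SE 0.45, adjusted p = 0.0165). Of all 234 rows 10.7% rose, and the median slope was 1.79 in the list, against -0.01 over all rows. Because miR-99-x matches the first 20 bases of miR-100-x, reads may have been split between miR-99-x and miR-100-x. The sequence of miR-100-z was not compared with theirs. miR-125-x did not follow let-7-x. It had 0 counts in instar 6 and 26.8 CPM in the prepupa, and its higher values were 1073 CPM in instar 5, 747 CPM in the male pupa of day 7 and 563 CPM in the female adult of day 4. The vertebrate-named rows had their highest sums in the same 3 libraries, at 8689, 6340 and 7139 CPM. miR-99-x too was highest in these 3 libraries, at 3310, 3109 and 2307 CPM, and it had 411 CPM in instar 6. miR-125-x had 22.8 and 240 CPM in the female and male pupa of day 4, against 0.717 and 1.35 CPM at day 1, and the vertebrate-named sums were 915 and 1327 CPM in the female and male pupa of day 4, against 36.6 and 44.3 CPM at day 1. The part of the vertebrate-named rows in the miR-125-x and miR-99-x values was not tested.

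A wider list of 32 rows, of microRNAs tied to ecdysone or metamorphosis in other insects, was set beside let-7. In pupae against larvae 24 were tested, 7 rose and 5 fell, where 19.4% and 18.1% of all rows did, with a median of 0.20 against -0.01 over all rows. These counts are a description of the list. Those that rose included miR-71-y (2.41, SE 0.33, adjusted p = 0.000133 by edgeR), sfr-miR-2c-3p (1.47, adjusted p = 0.000996) and sfr-miR-2b-3p (1.52, adjusted p = 0.00116). The miR-2 family is known in cockroaches to clear the messenger of the juvenile hormone factor Kr-h1 before metamorphosis. Those that fell included miR-281-x (-3.52, SE 0.36, adjusted p = 1.47e-05), a row of a microRNA known in the silkworm to repress an ecdysone receptor isoform, and sfr-miR-34-5p (-3.20, SE 0.76, adjusted p = 0.00541), whose fly counterpart is lowered by ecdysone. In adults against pupae 6 of 24 rose and 11 fell, where 11.2% and 12.2% of all rows did, with a median of -0.70 against 0.09 over all rows. sfr-miR-34-5p (4.93, adjusted p = 0.00143) and miR-281-x (2.71, adjusted p = 0.000325) were higher in adults, and miR-71-y (-2.44, adjusted p = 0.00107) and sfr-miR-2c-5p (-3.24, adjusted p = 0.00143) were lower. These 2 comparisons share the pupal libraries. In adults against larvae 1 of 24 rose and 3 fell, where 17.5% and 15.6% of all rows did. With larval instar 3 of 20 rose and 5 fell, where 10.7% and 18.4% of all rows did, by much smaller slopes than let-7-x: sfr-miR-14-3p, the fly counterpart of which acts on ecdysone receptor levels, had -0.44 per instar, and miR-8-x, which acts on insulin signalling in the fly fat body, had 0.42.

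The pattern of let-7-x was compared with that of 182 rows with a mean of at least 100 CPM, by Spearman's rho of CPM over the 18 libraries, which share a depth for both rows of each point. The members themselves had rho of 0.895 (let-7-y), 0.830 (let-7-z) and 0.760 (miR-98-x). The most alike rows were miR-100-x (rho 0.938, from 410 CPM in instar 1 to 210341 CPM in the male pupa of day 4), the predicted row m0017-5p (0.872), sfr-miR-307-3p (0.825), miR-278-y (0.818) and miR-252-x (0.754). Of these 5 rows, miR-100-x also came first by Pearson's r of log2 CPM, at 0.979, while the other 4 had 0.780, 0.571, 0.665 and 0.605. Next by Pearson's r came other rows, miR-100-z (0.954), miR-2795-z (0.923), miR-99-x (0.911) and sfr-miR-10505-3p (0.885). The least alike were miR-10-x of the Hox cluster (rho -0.843), miR-7115-x (-0.798) and miR-2755-y (-0.792), whose Pearson values were -0.624, -0.502 and -0.653. By Pearson's r the least alike row was sfr-miR-10-5p (-0.919).

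**Figure D5:**
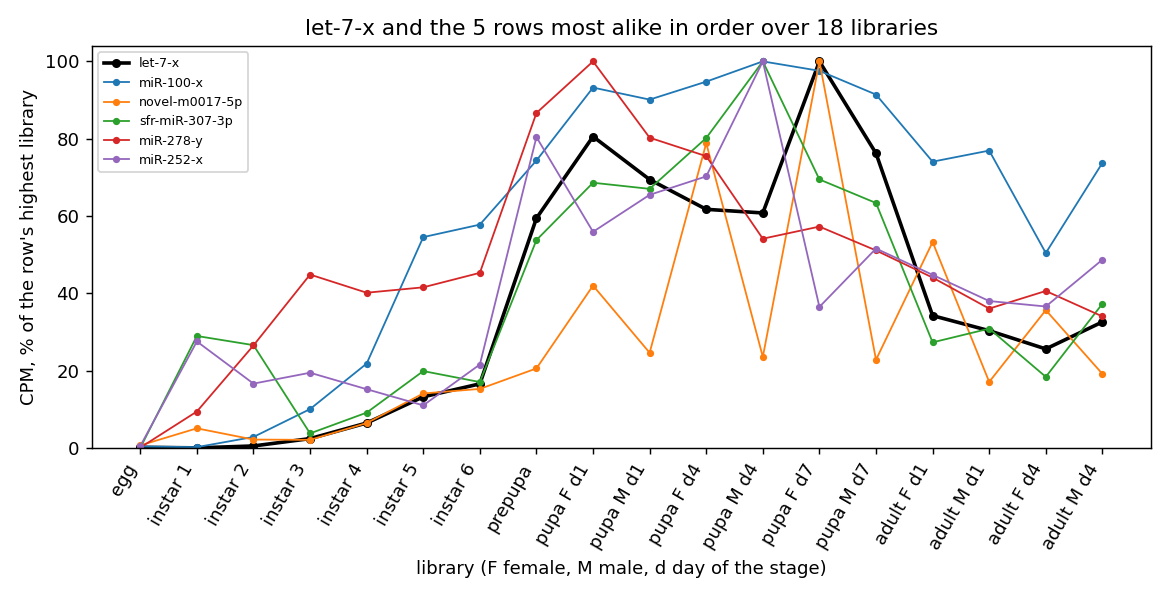
CPM of let-7-x (black) and of the 5 rows most alike to it by Spearman's rho, in each of the 18 libraries, as a percent of each row's own highest library. let-7-x peaks in the female pupa of day 7 (35182 CPM), and miR-100-x (rho 0.938) in the male pupa of day 4 (210341 CPM).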

How the data were processed

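The authors deposited their miRNA counts in 1 table that pairs each row with a sequence, and these are whole numbers with unequal totals. Per the labels' protocols, RNA was taken with Trizol and made into TruSeq small RNA libraries for an Illumina HiSeq instrument, and their text gives a smaller number of libraries than the 18 held here. Aligner, miRNA caller and genome build: not given in the sources used here. No genome was used. Rows with the same sequence and counts were merged (741 to 660). CPM was computed from the totals of all deposited rows. edgeR 4.0.16 (TMM, robust quasi-likelihood, rows with a mean of at least 10 counts, Benjamini-Hochberg 0.05) was run on whole tables in 3 fits, of larvae, pupae and adults, of pupae and adults by age and sex, and of larvae by instar. Standard errors were taken as the log2 fold change over the root of F. Ratios had 0.5 counts added. Duplexes came from ViennaRNA 2.7.2. DESeq2 1.42.0, R 4.3.3, Python 3.11.15, scipy 1.17.1 and matplotlib 3.10.9 were used, and the fits were tested on simulated data. Alternatives were other scalings, no filter, DESeq2, unmerged rows, summed forms and leaving out each library. The members and lists were chosen with earlier results of these data known. Named rows are the members, 2 lists and the 5 most and 3 least alike rows.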

Additional observations from a re-analysis of the deposited data

Results flagged for a closer look

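Of 21 groups of levels or shares examined, 1 held a library far from the others, where chance gives about 1 in 20. let-7-z in larvae had 25.5 CPM in instar 5, against 8.66 CPM in instar 6, the next highest, so that the gap took 0.660 of the range of the 6 larvae (critical value 0.625). The value rests on 7 counts in each of the 2 libraries, in totals of 274937 counts in instar 5 and 808248 in instar 6. The vertebrate-named rows summed to 8689 CPM in instar 5 and 45.8 CPM in instar 6. Their part in the let-7-z value was not tested.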

How the results depend on the processing

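In pupae against larvae, let-7-x and let-7-y stayed past the threshold under every alternative run (adjusted p 0.000428 to 0.0430 and 0.000423 to 0.0415), with log2 fold changes of 3.26 to 4.26 and 2.69 to 3.67 when each library was left out, highest without instar 6, and the ratios of let-7-x over miR-98-x in adults against pupae, and over miR-100-x in both comparisons, stayed under an adjusted p of 0.05. Library totals alone moved the median log2 fold change of all rows in pupae against larvae to -0.31, against -0.01 with TMM. TMM-scaled mean CPM of let-7-x was 2215 in larvae, 31598 in pupae and 12221 in adults. The cause of the changes below was not tested. The comparisons by age and sex rest on 2 libraries per age and moved most.

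For females against males the count of called rows was 16 without a filter, 21 by DESeq2, 4 with rows not merged, 11 without vertebrate-named rows, 0 without the 2 shallow male pupae and 1 to 14 with each library left out. With no replicate block, that is, without the term that pairs the sexes by age, it was 5. let-7-x had -0.027 without the shallow pupae and 0.013 to 0.382 with each library left out. let-7-z had -0.097 with DESeq2's size factors, -0.158 with library totals, -0.093 by DESeq2, -0.172 without vertebrate-named rows, -0.147 without the shallow pupae and -0.269 to 0.244 with each library left out.

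For pupal day 4 against day 1 the count was 39 with library totals, 30 without a filter, 85 by DESeq2, 47 without vertebrate-named rows, 0 without the shallow pupae and 0 to 71 with each library left out. let-7-x had 0.169 without the shallow pupae and -0.453 to 0.028 with each library left out. For day 7 against day 4 the count was 49 by DESeq2 and 0 to 12 with each library left out. let-7-z had -0.050 with let-7-x and miR-98-x summed, -0.203 without the shallow pupae and -0.276 to 0.248 with each library left out.

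For adult day 1 against pupal day 7 the count was 32 with DESeq2's size factors, 38 with library totals, 75 by DESeq2, 50 without vertebrate-named rows, 0 without the shallow pupae and 0 to 70 with each library left out. let-7-x had -1.68 with DESeq2's size factors and by DESeq2, -1.43 with library totals, -1.66 without vertebrate-named rows and -1.86 to -1.23 with each library left out. miR-98-x had -0.080, -0.094, -0.058 and -0.588 with DESeq2's size factors, by DESeq2, without vertebrate-named rows and without the shallow pupae, and -0.453 to 0.627 with each library left out. let-7-y had -0.441 to 0.082 with each library left out. For adult day 4 against day 1 the count was 0 with DESeq2's size factors, library totals, unmerged rows, no vertebrate-named rows or no shallow pupae, 13 by DESeq2 and 0 to 9 with each library left out. There let-7-x had -0.879 to 0.180, let-7-z -0.732 to 0.117 and miR-98-x -0.814 to 0.632 with each library left out.

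For the larval trend 68 rows were called, with 105 by DESeq2, 0 with instars 3 to 6 alone and 36 to 74 with each instar left out, and let-7-x had 1.06 with instars 3 to 6 alone and 1.34 to 2.18 with each left out. For adults against pupae the count was 29 to 91 with each library left out, lowest without the female adult of day 4, and let-7-x had -1.42 in the fit without larvae, with -1.51 to -1.31 when each library was left out. The log2 ratio of let-7-x over let-7-y in pupae against larvae was 1.95 with 5 counts added and 0.854 to 1.76 with each library left out. That of let-7-x over miR-98-x was 2.67 with 5 counts added and -0.113 to 1.30. Leaving out vertebrate-named rows, leaving out the shallow pupae, instars 3 to 6 alone and the fit without larvae were chosen after seeing the data. A count of 3 stands for up to 12.9 CPM in the shallowest library, so let-7-z and miR-98-x were not measurable in most larvae.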
